A study of Acyrthosiphon pisum with 15 samples.

Results

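In adults of the pea aphid, Acyrthosiphon pisum, sequenced as whole bodies, 180 of 20657 gene models were read almost entirely in males. They were chosen by their levels: the normalised count was at least 100 in all 6 male libraries, and the lowest male value was at least 20 times the highest of the 9 female values. Male against female levels therefore chose these members, and the contrast between the sexes is given below as a description with no test. A normalised count is a read count divided by a scaling factor of its library, with no correction for gene length.

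The study sequenced 15 libraries, from 5 adult morphs in each of the 3 clones BK11, I18 and F1, with 30 whole adults per library. Winged males and wingless males were 2 days old and were reared at 15 °C on a cycle of 13 h light and 11 h dark. Sexual females had the same light and temperature and were 2 to 6 days old. Winged and wingless asexual females were 2 days old and were reared at 18 °C on a cycle of 16 h light and 8 h dark. Each morph has n = 3, because the clones serve as biological replicates in the labels, and a p-value then rests on a spread in which clone and preparation cannot be told apart.

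A pea aphid clone is a lineage descended from a founding female by live birth without mating, so its morphs share a genotype apart from the sex chromosomes. Shorter days lead asexual mothers to bear sexual females and males, and males arise by the loss of an X chromosome. In this species the wings of males follow an inherited difference at an X-linked locus, whereas the wings of asexual females follow crowding. In insects, genes read in males alone are often genes of the testis and of the glands that make seminal fluid.

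Recovered reads ran from 29233690 to 42784904 per library in males and from 28721904 to 75066116 in females. The limit that a count of 0 allows, taken as 3 reads, was 2.83 to 4.08 normalised counts in males and 1.63 to 5.95 in females, for counting error only. Clone BK11 males held traces of 12 gene models that were high in sexual females and low in other males. These gene models had at least 1000 normalised counts in every sexual female library. In each I18 and F1 male library they were held to at most 1% of their lowest sexual female value. The BK11 male libraries and the asexual female libraries had no part in the choice. Levels in asexual females were not examined, so these gene models are not shown to be particular to sexual females. The median trace was 1.28% of the sexual female level in the BK11 winged male library and 0.410% in the BK11 wingless male library. In the I18 and F1 male libraries that median was at most 8.85e-05%. The choice kept those values low, so it fixes part of this contrast between clones. Earlier work on these values doubted 4 libraries, namely both BK11 male libraries, the I18 wingless male and the BK11 sexual female, and results are given with and without them where a fit was left. None of the 180 identifiers was found in the gene table used here, against 61 of all 20657, so members are named by identifier and no role is given for them.

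The members took 8.37%, 4.75% and 6.69% of all normalised counts in the BK11, I18 and F1 winged male libraries, and 5.54%, 4.51% and 7.35% in the BK11, I18 and F1 wingless male libraries. In the female libraries they took 0.00126% to 0.0130%. The median member stood at 597.9, 1907 and 2981 normalised counts in BK11, I18 and F1 winged males, and at 1607, 4586 and 5604 in BK11, I18 and F1 wingless males. The winged library was below the wingless library of its clone in that median in each clone, and BK11 was the lowest clone in both morphs. The BK11 winged library had the lowest median member and the largest share of reads in members. In whole bodies, fewer cells of a type and less RNA per cell cannot be told apart.

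**Figure D1:**
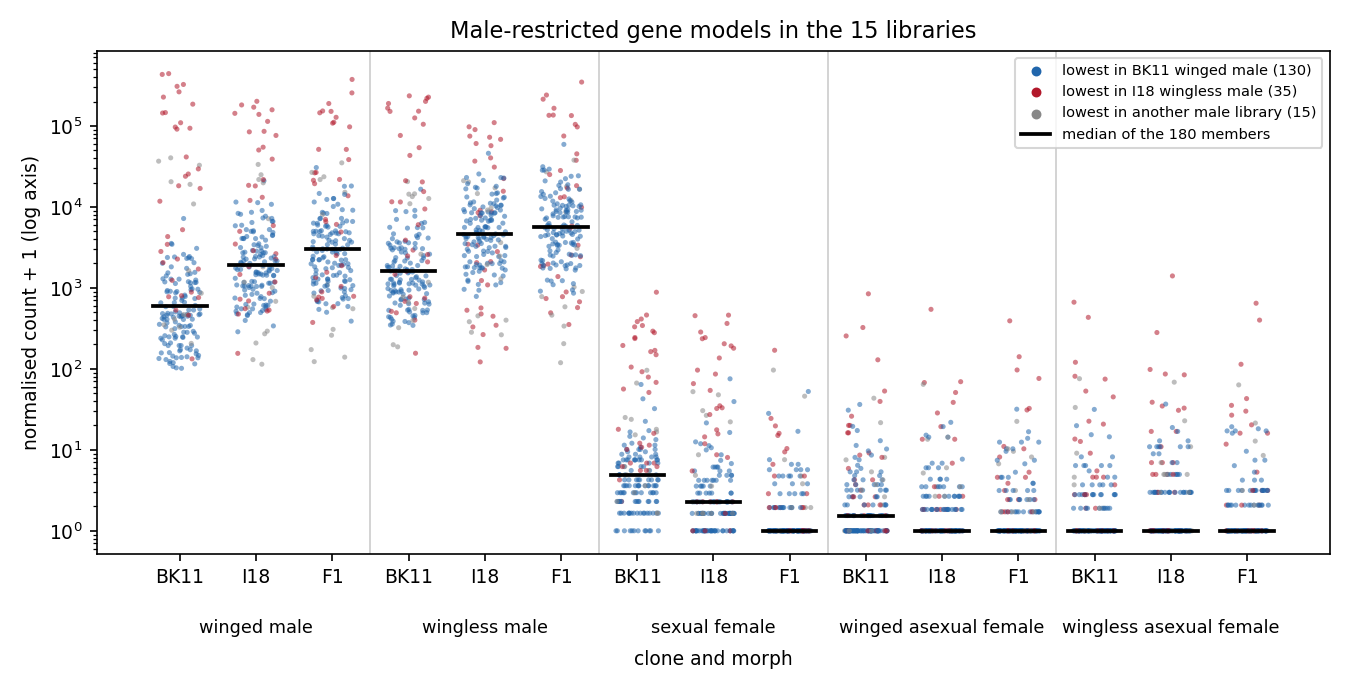
Normalised count + 1 (log axis) of the 180 male-restricted gene models in each of the 15 libraries, ordered by morph and clone. Each point is a gene model, coloured by the male library in which it was lowest, and black bars are medians. The median in the BK11 winged male library, 597.9, was the lowest of the 6 male medians, and the points of the members lowest in I18 wingless males reach the highest counts.

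The bounds of the choice cut through a continuum. Just inside the lower bound, ACYPI41125-RA had 100.6 normalised counts in its lowest male library and none in any female library, and just outside it ACYPI084577-RA had 99.99. Just inside the ratio bound, ACYPI51925-RA had a lowest male value of 183.0 against a highest female value of 9.11, a ratio of 20.08. Just outside it, ACYPI002957-RA had 958.0 against 48.4, a ratio of 19.80. Of the 180 members, 33 had a lowest male value under 200, and 36 had a ratio under 40. The ratio was at least 100 in 102 members, and its median was 128.2 over the 173 members with any female read. Without the BK11 winged male library the same bounds gave 298 members, and without all 4 doubted libraries 445. Fewer values then had to meet each bound, so the number could not fall, but its rise depended on the library. It was 235 without the BK11 sexual female library, 230 without the I18 wingless male library and 180 to 186 without any other library on its own.

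Members were grouped by their mean normalised count over the 6 male libraries. The count depends on transcript length, for which no value was used, so the classes rank reads and not transcripts. Under 1000 there were 30 members (16.7%), between 1000 and 10000 there were 117 (65.0%), and at 10000 or more there were 33 (18.3%). As a set under the same lower bound, the 9445 other gene models with at least 100 in all male libraries had 42.5%, 51.4% and 6.06% of their number in the same classes, from low to high. The median of the means was 2914 in members and 1261 in those other gene models. The ratio bound, which only members met, asks for a higher male value as the female value rises. It can therefore fix part of this difference. Graded by the lowest male library instead of the mean, the classes held 117, 46 and 17 members, from low to high.

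Reads were concentrated in few members. The class at 10000 or more held 82.7% of the members' summed male counts, the middle class 16.5% and the class under 1000 held 0.778%. The 10 most abundant members held 63.4% of the sum over male libraries. Their share ran between 38.9% in the I18 wingless male library and 77.2% in the BK11 winged male library.

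The most abundant member, ACYPI009933-RA, had 432091, 201230 and 374722 normalised counts in BK11, I18 and F1 winged males, against 226551, 109752 and 347709 in BK11, I18 and F1 wingless males. Its value was higher in winged males in each clone, and the ranges of the male morphs overlapped. In sexual females it had 411.4, 362.6 and 3.75 in the same order of clones, and 25.8 to 128.3 in the asexual libraries. ACYPI001191-RA, next in the same class, had 442251, 181424 and 255546 in BK11, I18 and F1 winged males, against 235006, 97439 and 165120 in the wingless males. Winged exceeded wingless in each clone here too, and the morphs overlapped.

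The 2 leading members of the middle class did not resemble each other. ACYPI084247-RA had 29422, 2641 and 19337 in BK11, I18 and F1 winged males, against 2925, 2048 and 2420 in the wingless males. Its high values were those of the BK11 and F1 winged libraries, while the I18 winged library lay within the wingless range. With a coefficient of variation (CV, the SD over the mean) of 120% over the 6 male libraries, it was the most variable of the members. ACYPI085288-RA had 2373, 8098 and 11487 in BK11, I18 and F1 winged males, against 5593, 14376 and 16486 in the wingless males. BK11 was lowest in both morphs, wingless exceeded winged in each clone, and the morphs overlapped.

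In the class under 1000, ACYPI44223-RA had 137.3, 549.3 and 756.4 in BK11, I18 and F1 winged males, against 531.6, 2092 and 1873 in the wingless males. ACYPI28439-RA had 145.4, 808.6 and 950.0 in the same winged libraries, against 455.3, 1812 and 1761 in the wingless ones. In both, the BK11 winged library was the lowest of the 6 and each clone had the higher value in wingless males, with overlapping morphs. The steadiest member was also in this class: ACYPI085424-RA had 758.3, 723.5 and 588.5 in BK11, I18 and F1 winged males, against 746.5, 564.1 and 737.1 in the wingless males. Its CV over the 6 libraries was 12.6%, and neither a morph nor a clone stood apart.

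Variation among male libraries was larger in the members than in other gene models of males. The highest male library exceeded the lowest by a median factor of 9.12 in members, against 1.93 in the 9445 other gene models. The median CV over the 6 libraries was 67.0% in members and 24.2% in the others. A CV under 25% was found in 5 members (2.78%) and in 52.3% of the others. For principal components, the gene model's mean over males and the library's mean over the set were taken from each log2 value. The first component then carried 82.6% of the variance in members and 53.6% in the others. The profile common to all members was removed, so this axis describes how members differed from each other.

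The library in which a member was lowest was seldom other than BK11 winged or I18 wingless. The BK11 winged male library was lowest for 130 members (72.2%), against 19.99% of the 9445 other gene models. The I18 wingless male library was lowest for 35 (19.4%), against 35.1% of the others, and the remaining 15 were lowest in another library. These sets were made from the values and are described with no test. The F1 wingless male library was the highest for 96 members, I18 wingless for 45 and BK11 winged for 20.

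The set of 130 had medians of 454.6, 1741 and 2744 in BK11, I18 and F1 winged males, against 1352, 4775 and 5454 in the wingless males. It held 20.7% of the members' summed counts and 105 of the 117 members of the middle class. All 7 members with no read in any female library were in it. The set of 35 had medians of 18212, 12024 and 19337 in BK11, I18 and F1 winged males, against 11498, 3455 and 12999 in the wingless males. It held 74.5% of the counts summed over the male libraries and 18 of the 33 members of the highest class. By library that share ran between 45.7% in I18 wingless males, where the set of 130 held 48.6%, and 92.0% in BK11 winged males, where the set of 130 held 3.06%. The split by lowest library fixes part of these contrasts.

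A property that the choice did not use was the form of the identifier. Identifiers with 5 digits made up 110 of the 180 members (61.1%), 27.01% of all gene models and 14.8% of the 9445 other gene models. Within the members they made up 94 of the set of 130 (72.3%) and 11 of the set of 35 (31.4%). What the digits denote is not given in the sources used here.

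Winged and wingless males, whose difference the choice of members did not use, were compared with limma on log2(normalised count + 1). No member passed an adjusted p of 0.05, higher (0 members, against 0.172% of all gene models tested) or lower (0 members, against 0.177%) in winged males. Without the adjustment, 22 members (12.2%) had p under 0.05, against 7.67% of all tested, and 21 of the 180 (11.7%) were lower in winged males with such a p, against 5.71% of all tested. With clone as a block no member passed either, higher (against 0.241% of all tested) or lower (against 0.389%), and 26 members (14.4%) had an unadjusted p under 0.05, against 9.09%. With edgeR the adjusted calls were 0 in both directions, against 0.0296% higher and 0.00493% lower of all tested, and 16 members (8.89%) had an unadjusted p under 0.05, against 10.3%. These limma fits took the spread of a gene model from all 15 libraries, including the females, where members had few reads. The SE and p-values of their wing differences thus do not measure male spread alone. In ACYPI085424-RA, the steadiest member, the SE with clone as a block was 0.74 over all 15 libraries and 0.21 over the 6 male libraries.

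With DESeq2, 0 members were higher, against 0.606% of all tested, and 1 was lower, against 2.46%, while 17 (9.44%) had an unadjusted p under 0.05, against 11.4%. The 1 call was ACYPI061150-RA, at a log2 fold change of −1.99 and a DESeq2 adjusted p of 0.0344, where limma gave −1.78 ± 0.63 (SE) and an adjusted p of 0.417. It had 1628, 1007 and 1092 normalised counts in BK11, I18 and F1 winged males, against 2609, 9134 and 3070 in the wingless males, with no overlap, and was singled out after its values were seen.

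The direction was shared by most members although none passed limma's threshold. The median log2 difference, winged minus wingless, was −1.16 (quartiles −1.40 and −0.58), against −0.03 over all gene models tested. It was −1.37 in BK11, −1.13 in I18 and −0.88 in F1, with an SD of 0.24 over the clones. Below in winged males in each of the 3 clones were 134 members (74.4%), against 20.7% of all tested, and above in each were 22 (12.2%), against 17.7%. At least 2-fold lower were 117 members (65.0%), against 11.8% of all tested, and at least 2-fold higher were 2 (1.11%), ACYPI084247-RA and ACYPI088541-RA, against 4.21%. In the 6 male libraries alone, with clone as a block, 142 members (78.9%) had an unadjusted limma p under 0.05, against 12.7% of all tested. The smallest adjusted p of that limma fit, chosen after seeing the data, was 0.0685. It has 2 residual degrees of freedom. The members share these 6 libraries, and 130 were lowest in BK11 winged males, so the 142 are not independent results. Libraries were left out of the first limma fit, which took in the females and did not pair libraries by clone. Without the BK11 winged male library its median was −0.48, with the low BK11 wingless library still in the other morph. Without clone BK11 altogether the median was −1.03. Without the 4 doubted libraries it was −1.14, a value that sets the I18 and F1 winged libraries against the F1 wingless library alone.

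**Figure D2:**
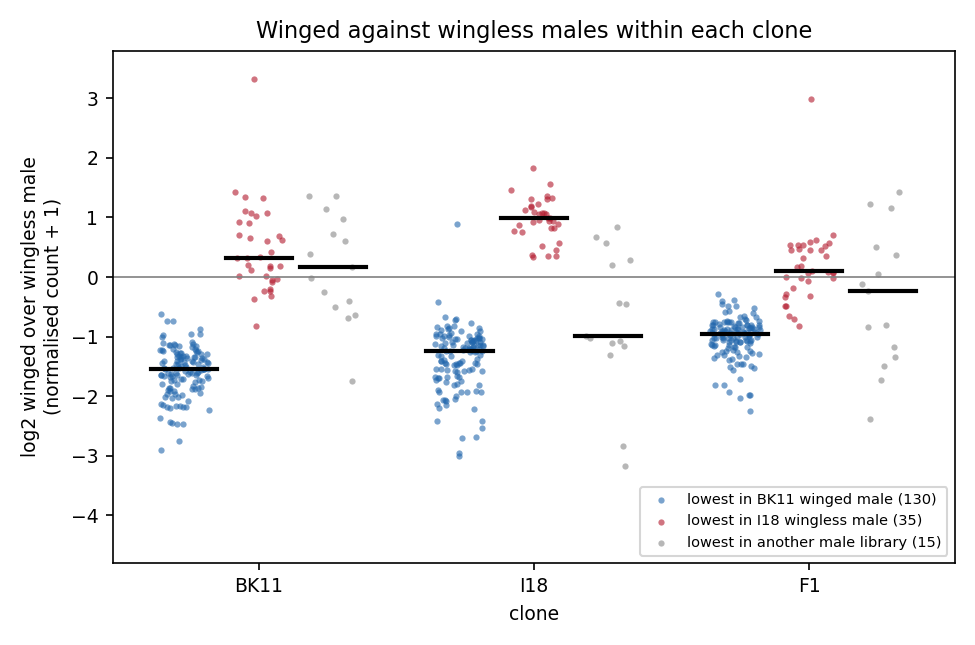
Log2 ratio of the winged to the wingless male library (normalised count + 1) in each clone, a point per gene model and a black bar at the median of each set. In the set of 130, lowest in BK11 winged males, the medians lay at −1.54, −1.25 and −0.96 in BK11, I18 and F1, whereas in the set of 35, lowest in I18 wingless males, they lay at 0.32, 0.996 and 0.11.

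The medians of the abundance classes lay on both sides of 0. The median log2 difference was −1.10 in the class under 1000, −1.27 in the middle class and 0.32 in the class at 10000 or more. In the highest class, 14 of 33 members were above in winged males in each clone and 10 were below in each. In the middle class those counts were 4 and 106 of 117. No test was made of these classes.

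All winged values exceeded all wingless values in 4 members (2.22%), against 5.65% of all tested, namely ACYPI000497-RA, ACYPI088541-RA, ACYPI060583-RA and ACYPI38761-RA, which were singled out after their values were seen. All winged values lay below all wingless values in 7 members (3.89%), against 6.9% of all tested. In the other 169 members the values of the male morphs overlapped.

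The largest differences with the same sign in each clone were as follows, and all missed the threshold. ACYPI084247-RA was 2.23 ± 1.03 higher in winged males on the log2 scale (SE, limma adjusted p = 0.646), from the values given above. ACYPI088541-RA had 41344, 18446 and 26627 in BK11, I18 and F1 winged males, against 15448, 8491 and 18264 in the wingless males. No winged value overlapped a wingless one, and its log2 difference was 1.03 ± 0.96 (SE, limma adjusted p = 0.958).

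On the other side, ACYPI55538-RA had 135.9, 609.1 and 1260 in BK11, I18 and F1 winged males, against 921.1, 4926 and 4417 in the wingless males. Only the F1 winged value reached into the wingless range, above the BK11 wingless value, and the log2 difference was −2.52 ± 0.90 (SE, limma adjusted p = 0.433). ACYPI48528-RA, which had no read in any female library, had 165.8, 1176 and 1218 in BK11, I18 and F1 winged males, against 1245, 6844 and 4787 in the wingless males. Its morphs did not overlap, and its log2 difference was −2.47 ± 0.77 (SE, limma adjusted p = 0.309), the smallest adjusted p among the members.

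**Figure D3:**
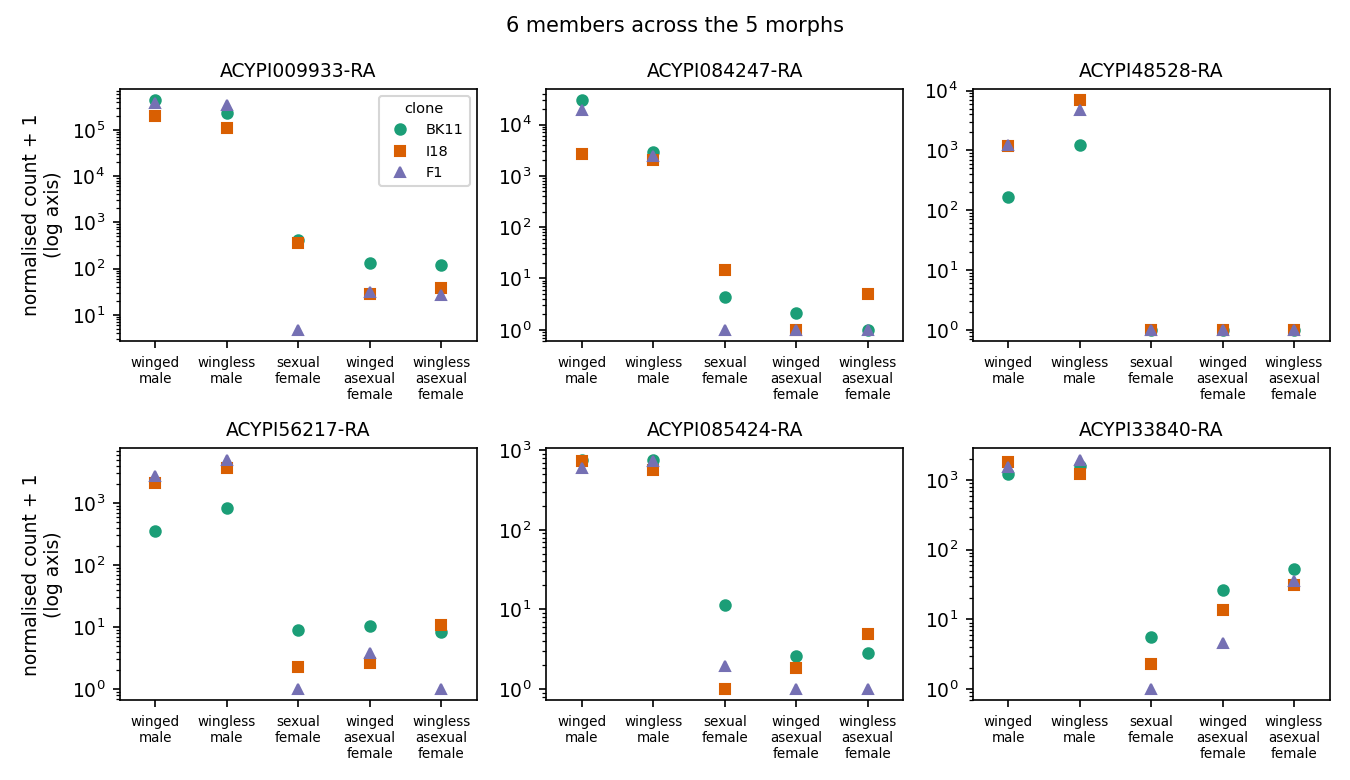
Normalised count + 1 (log axis) of 6 members in the 5 morphs, with a symbol for each clone and no summary drawn. ACYPI48528-RA is at 0 in all female libraries and lowest among males in BK11 winged, at 165.8. ACYPI085424-RA is level over the 6 male libraries, between 564.1 and 758.3.

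Clone differences were tested among the 6 male libraries with morph and clone terms. Of the 180 members, 112 (62.2%) differed among clones at a limma F test adjusted p under 0.05, against 3.56% of all gene models tested. All 112 were lower in BK11 than in F1, a direction found with a call in 2.14% of all tested. Of these, 111 were in the set lowest in BK11 winged males, and the other was ACYPI085337-RA, named after its values were seen. By class, 9 of 30 members were called under 1000, 93 of 117 in the middle class and 10 of 33 in the highest class.

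The fit had 2 residual degrees of freedom, and the number of calls depended on the tool. It was 0 with edgeR, against 0.0697% of all tested, where 138 members had an unadjusted p under 0.05 (76.7%, against 18.8% of all tested), 141 with DESeq2 (78.3%, against 12.8%) and 2 when all 15 libraries entered the fit (1.11%, against 7.05%). With 1 library left out and 1 residual degree of freedom, it was 0 without the BK11 winged library (against 0.022% of all tested), without F1 winged (against 0.0%), without BK11 wingless (against 0.0165%) and without F1 wingless (against 0.00551%). It was 145 without I18 winged (80.6%, against 20%) and 130 without I18 wingless (72.2%, against 6.76%). No fit was left without the 4 doubted libraries. When all 15 libraries entered the limma fit, 2 members were called (1.11%, against 7.05% of all tested). That fit has a single clone effect for both sexes, and the choice held members near 0 in females. It therefore cannot decide whether clones differ among males. The traces of 12 gene models high in sexual females, 1.28% and 0.410% in the BK11 winged and wingless male libraries, moved with the same clone. Their part in the result was not tested.

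The difference between BK11 and F1 ranged widely over the members. The median log2 difference in males was −1.99 for BK11 minus F1, −1.61 for BK11 minus I18 and −0.45 for I18 minus F1, against −0.02, −0.01 and −0.02 over all gene models tested. The quartiles of BK11 minus F1 were −2.27 and −0.49 over the 180 members. They were −2.39 and −1.95 in the set of 130 and −0.26 and 0.53 in the set of 35, sets whose choice used these libraries. At least 4-fold lower in BK11 than in F1 were 90 members, against 6.18% of all tested. BK11 was the lowest clone in both male morphs in 129 members (71.7%), against 15.2% of all tested, and the order F1 above I18 above BK11 held in both morphs in 87 (48.3%), against 4.23%.

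**Figure D4:**
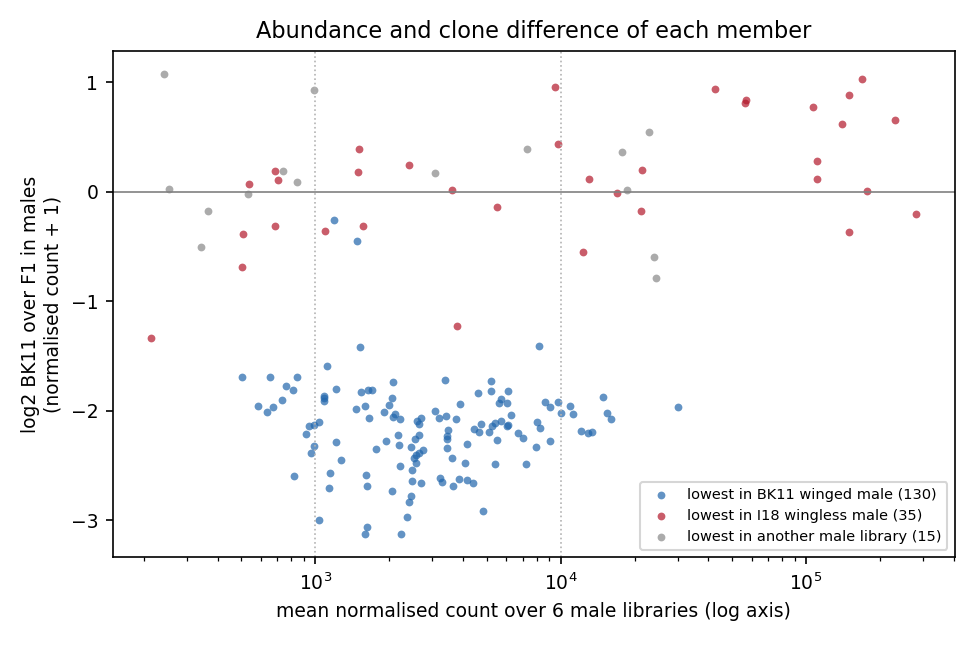
Log2 ratio of BK11 to F1 in males (normalised count + 1, fitted over both morphs) against the mean normalised count over the 6 male libraries (log axis), a point per member, with dotted lines at 1000 and 10000. Most members lowest in BK11 winged males lie in a band around their quartiles of −2.39 and −1.95, and the members with the highest counts lie nearer 0.

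The smallest clone p-values belonged to ACYPI56217-RA and ACYPI54385-RA, each with a limma F test adjusted p of 0.0245. ACYPI56217-RA had 353.3, 2067 and 2767 in BK11, I18 and F1 winged males, against 832.1, 3738 and 4999 in the wingless males. BK11 was lowest in both morphs, without overlap with the other clones. ACYPI54385-RA had 265.0, 1648 and 1199 in BK11, I18 and F1 winged males, against 1172, 7293 and 4563 in the wingless males. BK11 was again lowest in each morph, and its wingless value lay just under the F1 winged value. Each of these calls was lost in 6 of 14 alternative analyses.

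Within a morph, the CV over the 3 clones gave the spread without the difference between morphs. Its median was 63.9% in winged males, against 29.6% over all gene models tested and 15.6% over the 9445 other gene models. In wingless males it was 55.1%, against 41.0% and 24.8%. Without the BK11 library the median member CV was 26.4% in winged and 19.7% in wingless males, so most of the members' clone spread came from BK11. By class it was 58.9%, 67.5% and 45.5% in winged males, from low to high, and 51.6%, 56.9% and 49.7% in wingless males.

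Female values of the members were traces. The median of the mean over 9 female libraries was 1.34 normalised counts, 7 members were at 0 in all female libraries, and 46 had 3 reads or fewer in every female library. Any read was found for 168, 142 and 61 members in the BK11, I18 and F1 sexual female libraries, and for 68 to 103 in the asexual libraries. Set against the male mean of the same clone, the median member had 0.277% in BK11 sexual females, 0.0489% in I18 and 0 in F1. It had 0.0120% in BK11 winged asexual females and 0 in the other asexual libraries. The median member was lowest in BK11 in both male morphs, which raises the BK11 percentages. In normalised counts the medians were 3.91, 1.28 and 0 in BK11, I18 and F1 sexual females.

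**Figure D5:**
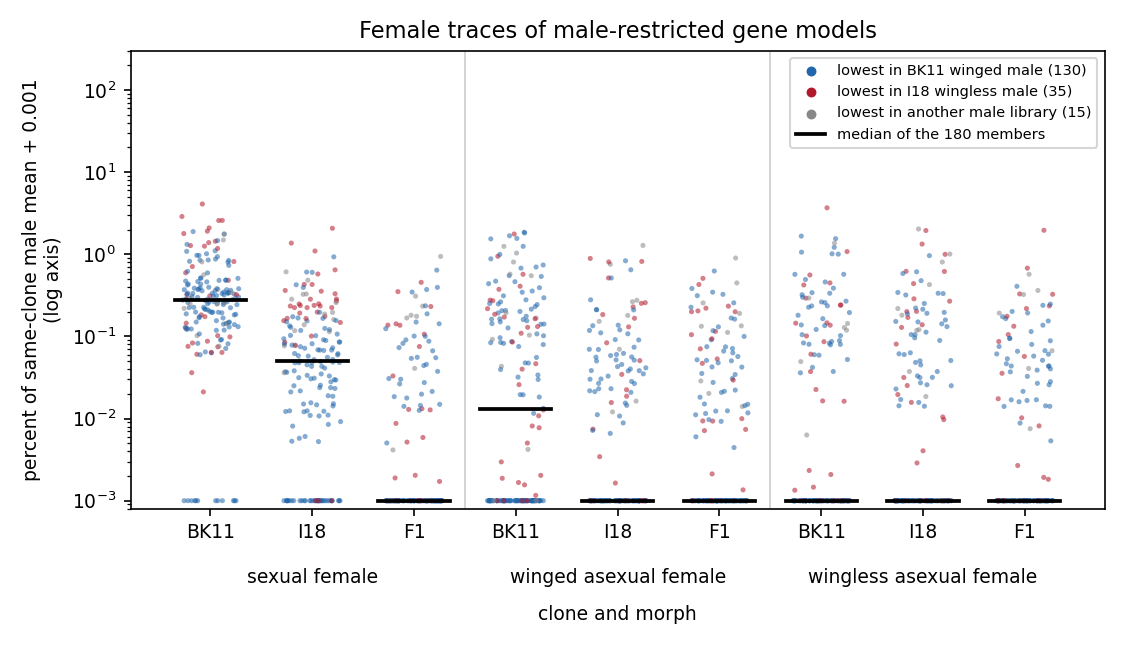
Female normalised count of each member as a percentage of the male mean of the same clone (plus 0.001, log axis) in the 9 female libraries, with medians as black bars. The median is highest in the BK11 sexual female library, at 0.277%, and 0 in 6 of the 9 libraries.

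Sexual and asexual females were compared within the limits that the choice put on female levels, and rearing and age cannot be told apart from morph here. In sexual females 23 members (12.8%) were higher at a limma adjusted p under 0.05, against 27.3% of all gene models tested. There were 3 lower (1.67%), against 23.2%. The choice of members held every female value to a small part of the male values, which limits how many could pass, so nothing is read from these shares. Of the 23, 13 belonged to the highest abundance class. The median log2 difference was 0.56, against 0.02 over all tested, and by clone it was 1.34 in BK11, 0.71 in I18 and 0 in F1.

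The sexual female libraries of the clones were unlike each other in the members. Their summed counts in members were 6001, 3807 and 615.4 in BK11, I18 and F1 sexual females, against 1063 to 2536 in the asexual libraries. As a percentage of the same-clone male mean, the medians of the set of 130 and the set of 35 were 0.272% and 0.321% in BK11 sexual females. In I18 sexual females they were 0.0277% and 0.233%. The split used male libraries that enter these means, so it fixes part of the percentages. In normalised counts the medians were 2.60 and 67.0 in BK11 and 0.641 and 26.3 in I18 sexual females. The number of members higher in sexual females was 11 without the BK11 sexual female library (6.11%, against 24.6% of all tested), 13 without I18 (7.22%, against 24.5%) and 45 without F1 (against 25.1%). It was 11 without the 4 doubted libraries (6.11%, against 25.1%). It was 43 with edgeR (23.9%, against 26.0% of all tested), 62 with DESeq2 (34.4%, against 30.0%) and 2 in a fit of the female libraries alone, where 25 members were tested and 29.3% of all tested were called.

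ACYPI000497-RA had 167.9, 283.8 and 9.37 normalised counts in BK11, I18 and F1 sexual females, against 0 to 1.98 in the 6 asexual libraries, with no overlap. Its log2 difference was 5.72 ± 0.80 (SE, limma adjusted p = 4.69e-05). ACYPI003801-RA had 242.8, 242.2 and 0.937 in the BK11, I18 and F1 sexual females, against 0 to 5.95 in the asexual libraries, and the F1 value overlapped them. Its log2 difference was 4.45 ± 1.25 (SE, limma adjusted p = 0.00895), and the call was lost in 5 of 21 alternative analyses. The lowest male value was 68215 in ACYPI000497-RA and 60590 in ACYPI003801-RA.

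The 3 members lower in sexual females were ACYPI33840-RA, ACYPI40469-RA and ACYPI30676-RA, the last named after its values were seen. ACYPI33840-RA had 4.56, 1.28 and 0 in BK11, I18 and F1 sexual females, against 25.003, 12.5 and 3.58 in winged and 52.1, 29.8 and 34.4 in wingless asexual females. Within each clone the sexual value was the lowest, but the BK11 sexual value lay above the F1 winged asexual value. The log2 difference was −3.19 ± 0.58 (SE, limma adjusted p = 0.000423). ACYPI40469-RA had 0.651, 1.92 and 5.62 in BK11, I18 and F1 sexual females, against 4.35, 13.3 and 12.9 in winged and 13.5, 15.9 and 16.1 in wingless asexual females. The F1 sexual value lay above the BK11 winged asexual value. Its log2 difference was −2.02 ± 0.65 (SE, limma adjusted p = 0.0188), a call lost in 5 of 22 alternative analyses.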

How the data were processed

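Whole-body RNA of 15 libraries was sequenced on an Illumina HiSeq, per the labels. The authors deposited a signal for 20657 gene models, a normalised count obtained by scaling each library; DESeq2 is named, without a version, in the submitters' processing notes. For the aligner, counter, strand setting, build and annotation, nothing was given in the sources used here. Divided by the smallest positive value of its library, each of the deposited values was whole (100%) within a tolerance of 0.001, so reads could be recovered.

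The members and lists were chosen with earlier results of these data known. Log2(normalised count + 1) was fitted with limma 3.58.1 (R 4.3.3, mean-dependent prior variance) on gene models with at least 10 in at least 3 libraries. Wing and female comparisons used all 15 libraries with 5 morph means (20301 tested, 10 residual degrees of freedom), and the clone F test used 6 male libraries with morph and clone terms (18639 tested). Benjamini-Hochberg adjustment ran over all gene models tested. Recovered reads were also tested with edgeR 4.0.16 and DESeq2 1.42.0. Fold changes of genes near 0 are understated on this scale. Fits were checked on simulated data. No simulated gene model was high in males and near 0 in females as the members are, so the check does not cover that setting.

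Named were the 2 highest members of each abundance class, the 2 largest wing and female differences in each direction, the 2 smallest clone p-values, the steadiest and the most variable member, and those at each bound. A planned list of sperm genes could not be applied without names. Libraries of a clone are paired because a clone is 1 genotype apart from the sex chromosomes. Their deviations from the morph means correlated with r of 0.135 to 0.642 across genes.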

Additional observations from a re-analysis of the deposited data

Results flagged for a closer look

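In the class with a mean of 10000 or more, the median log2 difference, winged minus wingless, was 0.667 in I18 and −0.0708 in F1, with 0.32 in BK11. It was picked out because the clones I18 and F1 lie on opposite sides of 0. Each clone has a library per morph, and the difference between the clones was not tested. Of 25 series of library values searched for a library standing apart from its group, none had one; chance gives about 1 in 20.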

How the results depend on the processing

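No member was called higher in winged males in any of the 26 alternatives, and with DESeq2 1 was called lower. With clone as a replicate block, calls stayed at 0 and 26 members had an unadjusted p under 0.05; in the 6 male libraries alone with the block, chosen after seeing the data, 142 had one (78.9%, against 12.7%), with a smallest adjusted p of 0.0685. The block moved no other call by over 1.5 times. The wing median ran from −1.71 to −0.48 when libraries or clones were left out. Clone calls were 0 with edgeR, 2 with all 15 libraries, and 0 to 145 with a library left out. Members higher in sexual females numbered 11 at a pseudocount of 8, 43 with edgeR, 62 with DESeq2, 2 in female libraries alone, 11 without the 4 doubted libraries, and 6 to 45 with a library or clone left out; those lower numbered 1 at a pseudocount of 8 and 1 to 4 with one left out. The female median was 1.56 with edgeR and 1.58 with DESeq2, and 0.018 to 1.01 with one left out. The number of members was 217 and 147 at lower bounds of 50 and 200, 241 and 144 at ratios of 10 and 40, 177 under TMM scaling, 445 without the 4 doubted libraries (chosen after seeing the data) and 180 to 298 with a library left out. By the lowest male library the classes held 117, 46 and 17. The median CV ran from 26.4% to 90.6% in winged and from 19.7% to 77.0% in wingless males with a library left out. The cause of these changes was not tested. The clone test without the 4 doubted libraries was not run, for lack of residual degrees of freedom. Depth limits the female values: most are at or under 3 reads.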

Other observations

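ACYPI003731-RA, singled out after its values were seen, held the largest part of the members' reads in 5 of the 6 asexual libraries, 36.7% to 55.3%. It had 843.6, 542.1 and 390.5 normalised counts in BK11, I18 and F1 winged asexual females and 431.4, 1403 and 645.0 in wingless ones. In sexual females it had 460.9, 452.3 and 23.4 in BK11, I18 and F1. Its male values were 144188, 138678 and 152886 in BK11, I18 and F1 winged males and 151997, 72396 and 240449 in wingless males.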
